A study of Homo sapiens with 31 samples.

Results

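The 5 genes described here are ID1, ID2, ID3 and ID4, the inhibitor of DNA binding genes, and HES1, a member of the hairy and enhancer of split family. They were chosen by symbol, as short-lived transcripts. All 5 had a row among the 57992 genes of the steady-state tables and among the 43682 genes of the actinomycin D tables. The study used PANC-1, an established human pancreatic ductal cancer line, and asked how KHSRP, an RNA-binding protein that binds AU-rich transcripts, bears on transcript levels and lifetimes. The polyA RNA-seq data form 2 sets: 3 steady-state libraries of KHSRP knockout cells (KO) and 3 of wild-type cells labelled NC, and a set treated with actinomycin D, a blocker of transcription, with 2 KO and 2 NC libraries at each labelled time of 0, 2, 4, 6 and 8 h. The labels do not say how the knockout was made, whether it is 1 clone, or whether replicates are separate cultures. P-values therefore reflect variation among the libraries at hand, part of which may be technical.

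ID proteins hold a helix-loop-helix domain without the basic region that touches DNA, so they pair with the E-proteins TCF3, TCF4 and TCF12 and keep them off their sites; their genes are classic targets of bone morphogenetic protein (BMP) receptors acting through SMAD1, SMAD5 and SMAD9. HES1 is a basic helix-loop-helix repressor induced by Notch through RBPJ and Mastermind proteins; it recruits TLE co-repressors and represses its own gene. In pancreas, HES1 keeps progenitors from differentiating, and ID genes are often raised in pancreatic cancer.

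The genes lie apart, each with no other annotated gene overlapping it in the deposited hg19 coordinates. ID1 (ENSG00000125968.8) is at chr20:30193092-30194313 on the plus strand, ID2 (ENSG00000115738.9) at chr2:8822186-8824591 on the plus strand, and ID3 (ENSG00000117318.8) at chr1:23884417-23885992 on the minus strand. ID4 (ENSG00000172201.11) is at chr6:19837601-19842428 and HES1 (ENSG00000114315.3) at chr3:193853937-193856521, both on the plus strand. The coordinates span whole genes, exons, introns and untranslated regions included. The processed pseudogene ID2B, a near copy of ID2, held 0 or 1 count in every library, and the neighbouring antisense RNA ID2-AS1 held 0 to 20.

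The 250 bases upstream of the start of the 4 genes that carry the results are shown because these genes moved together in part of the actinomycin D set. They are from RefSeq (GRCh38.p14) and run 5′ to 3′ on the gene's strand. Capitals mark 3 motifs on either strand: the CCAAT box (which reads ATTGG from the opposite strand), the TATAAA box and, found in HES1, the core motif TGGGAA bound by RBPJ. The windows are HES1 at chr3:194135898-194136147 and ID1 at chr20:31605039-31605288, both plus strand, ID2 at chr2:8681806-8682055, plus strand, and ID3 at chr1:23559502-23559751, minus strand.
HES1: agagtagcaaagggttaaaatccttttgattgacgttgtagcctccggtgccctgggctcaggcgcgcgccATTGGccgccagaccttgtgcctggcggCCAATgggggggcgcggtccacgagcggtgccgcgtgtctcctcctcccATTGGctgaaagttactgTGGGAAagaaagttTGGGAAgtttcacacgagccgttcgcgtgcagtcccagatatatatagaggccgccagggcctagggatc
ID1: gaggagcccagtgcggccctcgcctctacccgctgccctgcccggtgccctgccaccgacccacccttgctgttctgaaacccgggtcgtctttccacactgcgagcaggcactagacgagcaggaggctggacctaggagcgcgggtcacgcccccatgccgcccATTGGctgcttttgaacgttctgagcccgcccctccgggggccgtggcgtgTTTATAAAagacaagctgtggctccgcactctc
ID2: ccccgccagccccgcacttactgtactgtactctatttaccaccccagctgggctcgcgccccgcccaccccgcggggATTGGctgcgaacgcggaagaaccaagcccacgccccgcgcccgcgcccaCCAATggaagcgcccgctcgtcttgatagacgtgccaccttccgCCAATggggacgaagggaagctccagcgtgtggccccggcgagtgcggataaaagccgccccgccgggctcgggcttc
ID3: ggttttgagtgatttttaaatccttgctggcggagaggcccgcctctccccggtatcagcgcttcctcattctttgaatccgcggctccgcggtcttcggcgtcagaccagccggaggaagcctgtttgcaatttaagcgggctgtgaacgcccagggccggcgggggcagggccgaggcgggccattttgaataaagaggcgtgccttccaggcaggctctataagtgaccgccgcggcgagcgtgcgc

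HES1 held 2 copies of TGGGAA, at 84 to 79 and 70 to 65 bases before its start, a motif found on either strand in 20.8% of 35116 promoters of the same length. None of the 4 ID promoters held it. CCAAT, present in 32% of promoters, occurred 3 times in HES1, 3 times in ID2 and once in ID1 and in ID4. TATAAA, present in 10.7%, occurred in ID1 and ID4. The ID3 window held none of the motifs searched. CACNAG, an N box of the kind HES1 binds, was in 32% of promoters, with 3 matches in HES1 and 1 in ID1. The cyclic AMP element TGACGTCA (1.65% of promoters), the SMAD element GGCGCC (16.4%) and the E box CACGTG (6.34%) matched none of the 5. A match is a string of letters and not a shown binding site.

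Total counts ran from 33706181 to 43278138 over the 6 steady-state libraries and from 19177934 to 25768060 over the 20 treated ones. KHSRP stood at 9.68 to 11 CPM (counts scaled to a common library size) in the 3 steady-state KO libraries and 62.5 to 63.6 CPM in the 3 NC libraries; in the actinomycin D set it stood at 134 to 164 CPM in the 10 KO-labelled libraries and 406 to 434 CPM in the 10 NC-labelled ones. PANC-1 is known to have lost CDKN2A, yet this gene had 2728 to 5476 counts in the NC-labelled actinomycin D libraries and 0 in the KO-labelled ones (in the steady state, 6 in each KO library and 0 in NC). Ductal keratins also differed between the labels of the actinomycin D set, in both directions. KRT19 had 7608 to 10958 counts in the KO-labelled and 0 to 15 in the NC-labelled libraries. KRT7 had 191 to 378 counts in the KO-labelled and 11972 to 20288 in the NC-labelled libraries. KRT8 and KRT18 had at least 21647 counts under both labels. EPCAM and CDH1 counts were low, and lower in the NC-labelled libraries. CDKN2A presence goes against the cell line named on the NC-labelled libraries of that set, so genotype differences within it are given as differences between labels. The 6 ductal markers summed to 6450 to 7660 CPM in steady-state KO and 7090 to 7680 CPM in NC. In the actinomycin D set they summed to 4430 to 5840 CPM in KO-labelled and 3160 to 4230 CPM in NC-labelled libraries. Of 5 immune markers, the pan-leukocyte gene PTPRC had at most 5 counts in any library, and nearly all of the list's reads were CD68.

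In the steady state, 3 of the 5 genes were higher in KO cells, ID1, ID3 and HES1. ID1 rose by a ratio of 1.24, and ID3 and HES1 each by 1.42. ID2 and ID4, at 39 to 64 and 11 to 21 counts a library, did not pass the test. The count is to be read against a background in which 50.6% of all 17240 genes tested passed (24.4% higher in KO and 26.3% lower), and KO and NC libraries did not overlap in 60% of genes. Markers of other cell types moved the same way: the immune list summed to 92.8 to 118 CPM in KO and 58.8 to 61.5 CPM in NC, the fibroblast list to 4.51 to 6.5 CPM in KO and 3.14 to 3.54 CPM in NC, and the endothelial list to 4.51 to 4.84 CPM in KO and 2.75 to 3.91 CPM in NC. Their part in the members' rise was not tested.

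ID1 stood at 255.7, 251.1 and 261.1 CPM in the KO libraries, against 191.2, 225.9 and 200.3 CPM in the NC libraries. All 3 KO libraries were above all 3 NC libraries. Averages were 255.9 ± 5.0 CPM for KO and 205.8 ± 18.0 CPM for NC (SD, n = 3 each). The log2 difference was 0.31 (SE 0.08, adjusted p = 0.0085, edgeR quasi-likelihood test with Benjamini-Hochberg adjustment). This call was lost when counts were scaled to the ribosomal protein genes (log2 0.19, adjusted p = 0.0724) and without NC replicate 1 (log2 0.26, adjusted p = 0.0537).

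ID3, an ID protein known from lymphocyte development, stood at 54.28, 56.69 and 54.68 CPM in the KO libraries, against 36.81, 42.08 and 37.59 CPM in the NC libraries. Again every KO library was above every NC library. The log2 difference was 0.51 (SE 0.08, edgeR adjusted p = 0.000761), and libraries averaged 55.2 ± 1.29 CPM for KO and 38.8 ± 2.85 CPM for NC (SD, n = 3 each).

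HES1 stood at 22.79, 26.93 and 30.69 CPM in the KO libraries, against 18.43, 18.83 and 19.39 CPM in the NC libraries. The groups did not overlap, and the KO libraries were the more spread, with an SD of 3.95 CPM around a mean of 26.8, against 0.479 CPM around 18.9 in NC (n = 3 each). The log2 difference was 0.51 (SE 0.11, edgeR adjusted p = 0.00396).

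ID2, which was first named for its binding to E-proteins and also binds the retinoblastoma protein, stood at 1.118, 1.561 and 1.358 CPM in the KO libraries and 1.342, 1.311 and 1.493 CPM in the NC libraries, from 39 to 64 counts a library. The groups overlapped, and the log2 difference was -0.03 (SE 0.20, edgeR adjusted p = 0.901). ID4, which is known mainly from neural progenitors and mammary epithelium, had 11, 12 and 14 counts in the KO libraries and 18, 21 and 14 counts in the NC libraries. The KO values were all below the NC values in CPM, but the difference did not pass (log2 -0.57, SE 0.32, edgeR adjusted p = 0.163). With SE of 0.20 and 0.32 on the log2 scale, a difference of the size seen for ID1 was not detectable in either gene at this depth.

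**Figure D1:**
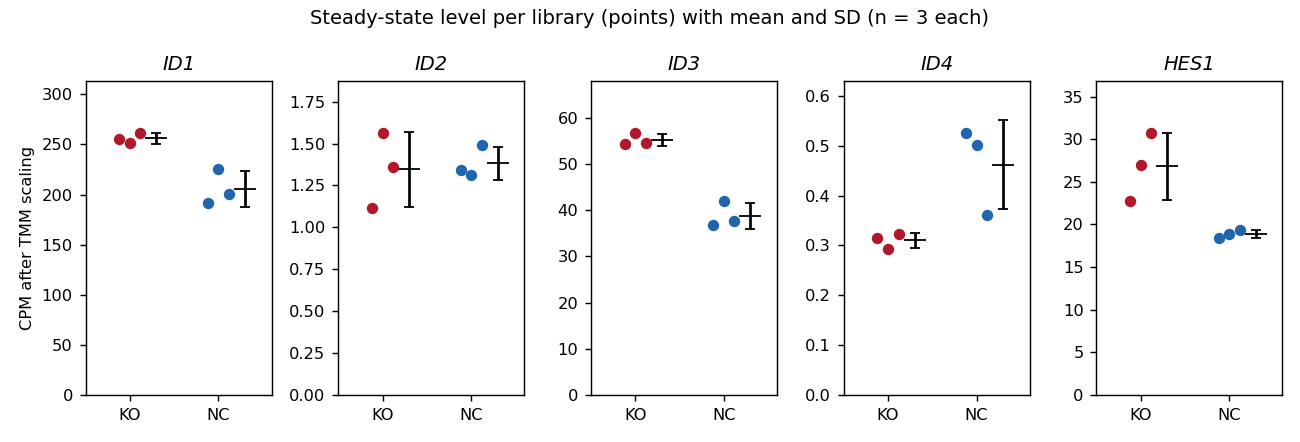
Level of each gene in the steady-state set, in CPM after TMM scaling on axes that start at 0; points are libraries and bars the mean ± SD (n = 3 each). KO and NC libraries do not overlap for ID1, ID3 and HES1 (KO higher) or ID4 (KO lower, from 11 to 21 counts a library, not called), and overlap for ID2.

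Set on a per-length scale so that genes can be compared, the order of levels was the same in both genotypes: ID1, ID3, HES1, ID2, ID4. In KO libraries the deposited TPM averaged 131 ± 12.3 for ID1, 33.0 ± 2.29 for ID3, 8.26 ± 0.949 for HES1, 0.510 ± 0.0265 for ID2 and 0.0567 ± 0.00577 for ID4 (SD, n = 3). In NC libraries it averaged 88.3 ± 9.96, 19.4 ± 2.56, 4.98 ± 0.240, 0.463 ± 0.0702 and 0.0733 ± 0.0115 TPM in the same gene order (SD, n = 3). No neighbours in this order overlapped in either genotype.

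The E-proteins, which ID proteins bind, all passed the steady-state test, in both directions, where 50.6% of all genes did. TCF3 was higher, with 90.0 ± 1.2 CPM for KO and 63.2 ± 3.7 CPM for NC (SD, n = 3 each; log2 0.51, SE 0.08, edgeR adjusted p = 0.00055). TCF12 fell to 39.9 ± 7.1 CPM for KO, against 83.3 ± 3.3 CPM for NC (log2 -1.06, edgeR adjusted p = 0.000122), and the scarce TCF4 fell by 1.21 on the log2 scale (edgeR adjusted p = 0.0017). The directions of all 3 were the same under each of 3 other scalings of the counts.

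Of 12 other HES, HEY and BHLHE genes listed, 9 could be tested in the steady state, and 4 of them were higher in KO and none lower: HES2 (log2 0.51), HES6 (0.50, an inhibitor of HES1 in mouse neural cells), HES7 (0.59, a segmentation clock gene) and BHLHE41 (0.52, a circadian repressor). Their edgeR adjusted p-values ran 0.00127, 0.000677, 0.00193 and 0.044; BHLHE41 was lost under median-of-ratios scaling and under ribosomal protein scaling. HES4 (log2 0.08), HEY1 (0.27), HEY2 (0.64), HEYL (-0.33) and BHLHE40 (0.21) did not pass. HES3, HES5 and HELT were at or near 0 counts and were not tested. The median of the 9 was 0.50, against 0.02 over all genes tested, of which 50.6% passed (24.4% higher and 26.3% lower). The 5 TLE co-repressors were named after their values were seen. Of these, TLE1 (0.48), TLE3 (0.34) and TLE5 (0.32) were higher in KO, and TLE2 (-0.20) and TLE4 (0.11) did not pass.

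Upstream of the ID genes, 33 of 39 listed BMP genes were tested in the steady state, with 6 higher and 14 lower in KO and a median log2 of -0.26. Over all genes tested, 24.4% were higher and 26.3% lower, and the median was 0.02. None of 9 receptors and co-receptors was higher and 6 were lower. Among called genes of at least 5 CPM on average, the largest falls were in SMAD5, a BMP-activated SMAD (log2 -1.74, SE 0.13), BMPR2, the type II receptor (-1.53, SE 0.12), and SKIL, a SMAD repressor (-1.39, SE 0.14). The largest rises were in GDF15, a distant BMP relative and stress cytokine (0.45, SE 0.12), and in 2 inhibitors of the pathway, SMAD7 (0.31, SE 0.08) and SMURF1 (0.30, SE 0.09); both inhibitors lost their call under ribosomal protein scaling.

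Upstream of HES1, 36 of 37 listed Notch genes were tested, with 12 higher and 9 lower in KO and a median log2 of 0.13. These counts are to be read against 50.6% of all genes passing (24.4% higher and 26.3% lower), with a median of 0.02. Within the same limit, the largest falls were in ADAM10, the protease that makes the first ligand-induced cut of Notch (log2 -1.33, SE 0.14), RBPJ, the DNA-binding partner of cleaved Notch (-1.06, SE 0.16), and MAML2, a Mastermind co-activator (-1.05, SE 0.14). The largest rises among called genes within it were in NUMBL, a Notch antagonist (0.86, SE 0.10), the ligand JAG2 (0.44, SE 0.10) and the glycosyltransferase RFNG (0.37, SE 0.10). Under ribosomal protein scaling the Notch counts became 4 higher and 9 lower, and RFNG was lost.

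**Figure D2:**
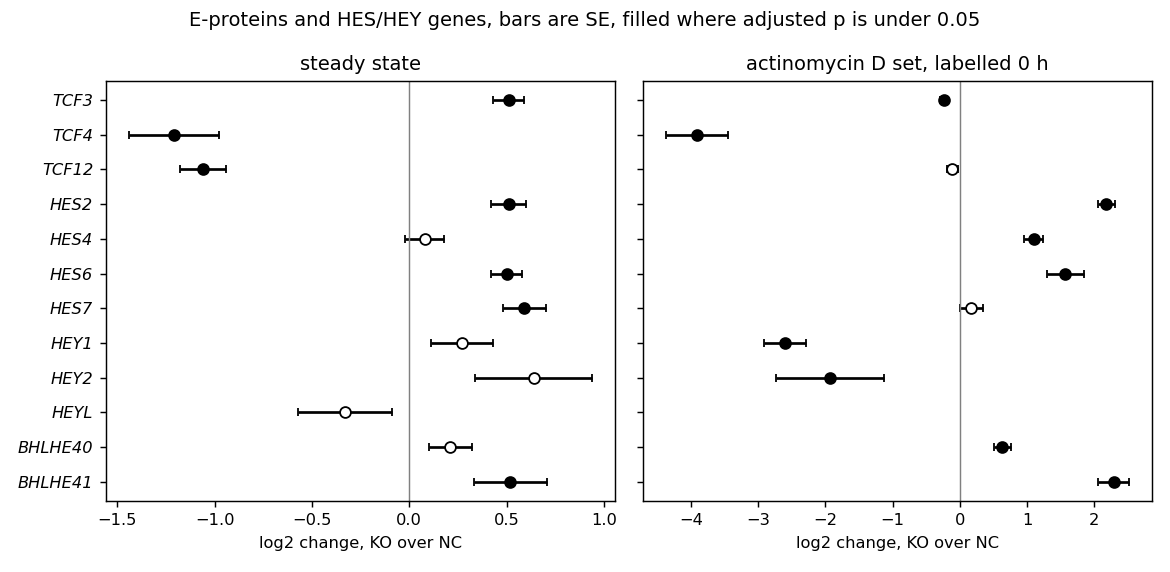
Log2 change, KO over NC, of the E-proteins and of HES/HEY relatives in the steady state (left) and between libraries labelled KO 0 h and NC 0 h (right, wider axis); bars are SE and filled points have an adjusted p under 0.05. HEYL is left out on the right because both NC libraries had 0 counts; TCF3 is on opposite sides of 0 in the 2 sets with TMM scaling, but is higher in KO at 0 h (0.21) under ribosomal protein scaling.

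Under actinomycin D, KO 6 h and NC 4 h libraries stood apart from all others for ID1, ID3 and HES1, and KO 6 h also for ID2. In these libraries the mean level was 5.66 to 12.8 times the mean of the other 8 libraries of the same label. ID2 in the NC-labelled libraries was the exception, with a ratio of 1.11. Short-lived transcripts are known to decline once transcription is blocked. Whether these 4 libraries carry the right time label was not tested, and each change from 0 h, slope and difference between labels below takes the labelled times as given. In bulk RNA, fewer cells of a kind and less RNA per cell cannot be told apart, and a level is a share of what remains after the block of transcription.

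**Figure D3:**
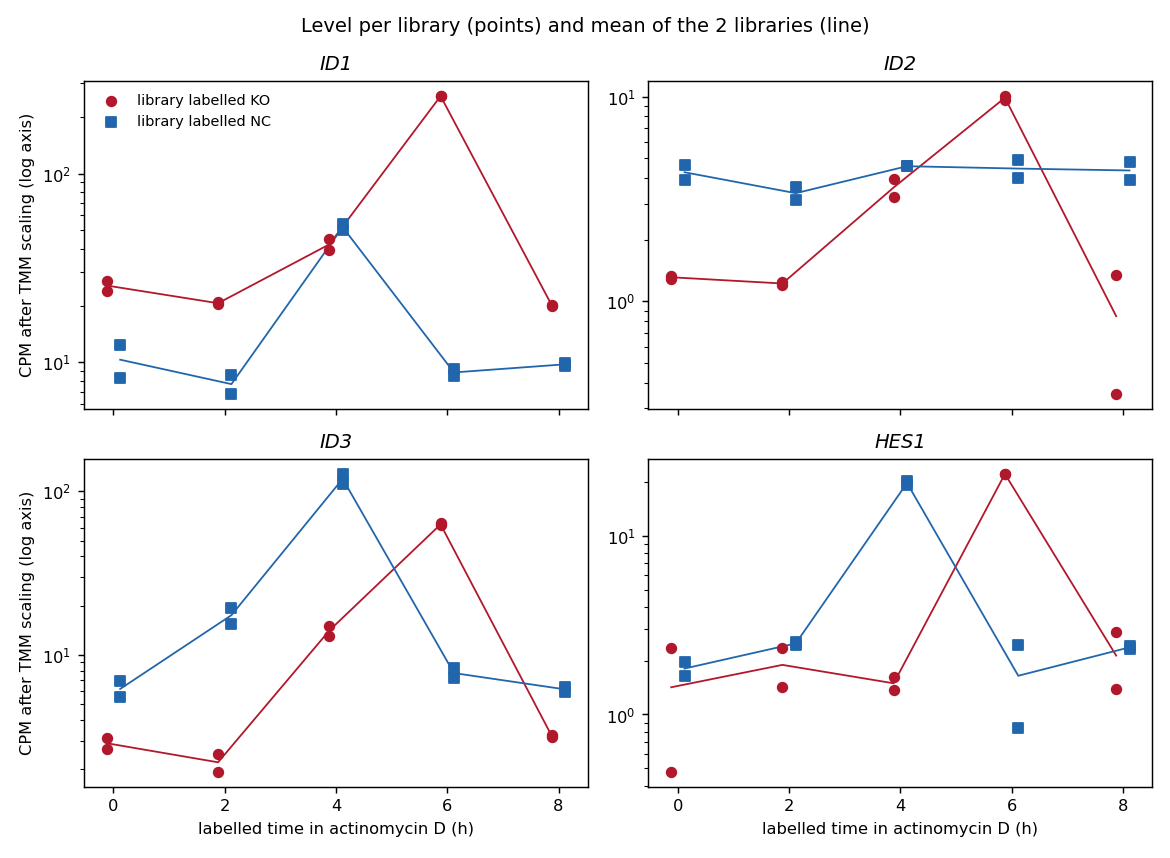
Level of 4 genes in the actinomycin D set against labelled time, in CPM after TMM scaling on a log axis; points are libraries, lines join the means of 2 libraries. The KO-labelled libraries peak at 6 h for all 4 genes, and the NC-labelled libraries peak at 4 h for ID1, ID3 and HES1 while ID2 stays between 3.13 and 4.91 CPM.

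ID1 stood at 256.6 and 257.6 CPM in the KO 6 h libraries, against 19.83 to 44.98 CPM (median 22.4) in the other 8 KO-labelled libraries. It stood at 53.79 and 50.22 CPM in the NC 4 h libraries, against 6.816 to 12.43 CPM (median 8.90) in the other 8 NC-labelled libraries. The high libraries were above all others of their label, as was the case for 45.3% of all genes or their reverse in KO 6 h and 46.8% in NC 4 h. The log2 change from 0 h was 3.33 (SE 0.11, edgeR adjusted p = 3.9e-26) in KO 6 h and 2.33 (SE 0.12, edgeR adjusted p = 6.3e-20) in NC 4 h.

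ID3 stood at 61.89 and 63.61 CPM in the KO 6 h libraries, against 1.933 to 15.11 CPM (median 3.14) in the other 8 KO-labelled libraries. In the NC 4 h libraries it stood at 127.5 and 110.7 CPM, against 5.512 to 19.48 CPM (median 7.05) in the other 8 NC-labelled libraries. The log2 change from 0 h was 4.44 in KO 6 h (SE 0.16, edgeR adjusted p = 2.94e-24) and 4.26 in NC 4 h (SE 0.15, edgeR adjusted p = 1.83e-25).

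HES1 stood at 22.2 and 22.19 CPM in the KO 6 h libraries, against 0.4769 to 2.877 CPM (median 1.52) in the other 8 KO-labelled libraries. It stood at 20.27 and 19.25 CPM in the NC 4 h libraries, against 0.8402 to 2.54 CPM (median 2.38) in the other 8. Outside the high libraries its levels rested on 10 to 66 counts a library. The log2 change from 0 h was 4.00 (SE 0.41, edgeR adjusted p = 3.1e-09) in KO 6 h, where it ran from 3.23 without KO 0 h replicate 1 to 5.52 without KO 0 h replicate 2, and 3.44 (SE 0.39, edgeR adjusted p = 1.65e-08) in NC 4 h.

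ID2 stood at 9.669 and 10.08 CPM in the KO 6 h libraries, against 0.3533 to 3.974 CPM (median 1.31) in the other 8 KO-labelled libraries, a log2 change from 0 h of 2.91 (SE 0.34, edgeR adjusted p = 9.24e-10). In the NC 4 h libraries it stood at 4.561 and 4.585 CPM, within the 3.129 to 4.909 CPM of the other 8 NC-labelled libraries. That log2 change was 0.10 (SE 0.30, edgeR adjusted p = 0.839). Scaled to the ribosomal protein genes it was 0.72 (adjusted p = 0.038). In the 8 KO-labelled libraries outside KO 6 h, ID2 levels rested on 7 to 91 counts a library.

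All 4 genes tested thus rose in KO 6 h and 3 of 4 in NC 4 h. Among all 17715 genes tested, 47.7% passed in KO 6 h (19.7% higher and 28% lower) and 51.5% in NC 4 h (27.1% higher and 24.4% lower). A log2 change above 2 with an adjusted p under 0.05, which each of these 7 rises had, was seen in 3.9% of genes in KO 6 h and 5.84% in NC 4 h. In CPM scaled within each set, steady-state KO libraries averaged 255.9 (ID1), 55.2 (ID3), 26.8 (HES1) and 1.35 (ID2). In that gene order KO 6 h averaged 257.1, 62.75, 22.19 and 9.87, and KO 0 h 25.5, 2.89, 1.42 and 1.31. Steady-state NC averaged 205.8, 38.8, 18.9 and 1.38, NC 4 h 52.0, 119.1, 19.8 and 4.57, and NC 0 h 10.3, 6.21, 1.81 and 4.27. Levels were not tested between the 2 sets.

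ID4 could not be tested in this set. It had 3 and 2 counts in the KO 0 h libraries, 6 and 8 at KO 2 h, 2 and 6 at KO 4 h, 7 and 13 at KO 6 h, and 0 and 5 at KO 8 h. All 10 NC-labelled libraries held 0, which allows 3 counts, or 0.116 to 0.153 CPM, in each (counting error only). Its highest count was in a KO 6 h library, but the KO 6 h and KO 2 h libraries overlapped.

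The same libraries were high in the early-response transcripts, which are known to be induced within minutes of a stimulus. The 12 genes listed (FOS, FOSB, JUN, JUNB, EGR1, IER2, IER3, ATF3, MYC, KLF6, KLF10 and BTG2) summed to 1229 to 1231 CPM in the KO 6 h libraries and to 1844 to 1926 CPM in the NC 4 h libraries. In all other groups the sum lay between 142.1 and 208.3 CPM. All 12 passed the test as higher against 0 h in both, with a median log2 of 3.27 in KO 6 h (all genes -0.09) and 2.70 in NC 4 h (all genes 0.00). Of all genes, 19.7% passed as higher in KO 6 h and 27.1% in NC 4 h. On the molecule scale 11 of the 12 passed as higher in each. The part of this early-response shift in the members' rise was not tested.

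Smaller rises preceded the high libraries at neighbouring labels. At KO 4 h, ID3 averaged 14.1 ± 1.42 CPM, against 2.89 ± 0.313 CPM at KO 0 h (SD, n = 2 each; log2 2.29, SE 0.18, edgeR adjusted p = 2.38e-13). ID2 averaged 3.6 ± 0.528 CPM at KO 4 h, against 1.31 ± 0.0332 CPM at KO 0 h (log2 1.45, SE 0.35, edgeR adjusted p = 0.00118). ID1 averaged 42.2 ± 3.97 CPM at KO 4 h, against 25.5 ± 2.24 CPM at KO 0 h (log2 0.73, SE 0.11, edgeR adjusted p = 1.32e-06). HES1 averaged 1.49 ± 0.173 CPM at KO 4 h, against 1.42 ± 1.33 CPM at KO 0 h, and did not pass (log2 0.11, SE 0.49). Of the 4, 3 passed, where 27.7% of all genes did (12% higher and 15.7% lower).

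At NC 2 h the gene that rose was ID3, at 17.5 ± 2.79 CPM, against 6.21 ± 0.979 CPM at NC 0 h (SD, n = 2 each; log2 1.5, SE 0.15, edgeR adjusted p = 1.57e-10). ID1 was lower there, at 7.68 ± 1.22 CPM, against 10.3 ± 2.96 CPM at NC 0 h, with overlapping libraries (log2 -0.43, SE 0.14, edgeR adjusted p = 0.0164); this call was lost under total-count scaling (adjusted p = 0.101), under ribosomal protein scaling (adjusted p = 0.602) and without NC 0 h replicate 2 (log2 -0.11) or NC 2 h replicate 2 (log2 -0.27). At NC 2 h, 31.8% of all genes passed (16.9% higher and 14.9% lower).

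At KO 2 h none of the 4 genes passed with edgeR or DESeq2, and ID1 had an unadjusted p of 0.0112 (9.16% of all genes passed, 4.87% higher and 4.29% lower). ID1 there, at a log2 of -0.31, passed as lower under total-count scaling (-0.37), ribosomal protein scaling (-0.45), no filter on low counts (-0.33), a fit of KO-labelled libraries alone (-0.33) and on the deposited molecule scale (-1.09). At KO 8 h, ID1 was lower than at KO 0 h by a log2 of -0.35 (SE 0.12, edgeR adjusted p = 0.0289; 22.1% of all genes passed, 11.3% higher and 10.7% lower), with 19.83 and 20.24 CPM against 23.94 and 27.11 CPM. That call was lost without KO 0 h replicate 2 (log2 -0.26) and without either KO 8 h library (log2 -0.33 and -0.36). ID2 at KO 8 h, with 1.34 and 0.3533 CPM, passed as lower without replicate 1 (log2 -1.88). None passed at NC 6 h or NC 8 h with edgeR or DESeq2, and none had an unadjusted p under 0.05 with edgeR, but ID1 passed as lower at NC 6 h on the molecule scale (-0.71, limma adjusted p = 0.000942). Of all genes, 4.42% passed at NC 6 h (3.12% higher and 1.3% lower) and 3.21% at NC 8 h (1.61% higher and 1.59% lower).

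**Figure D4:**
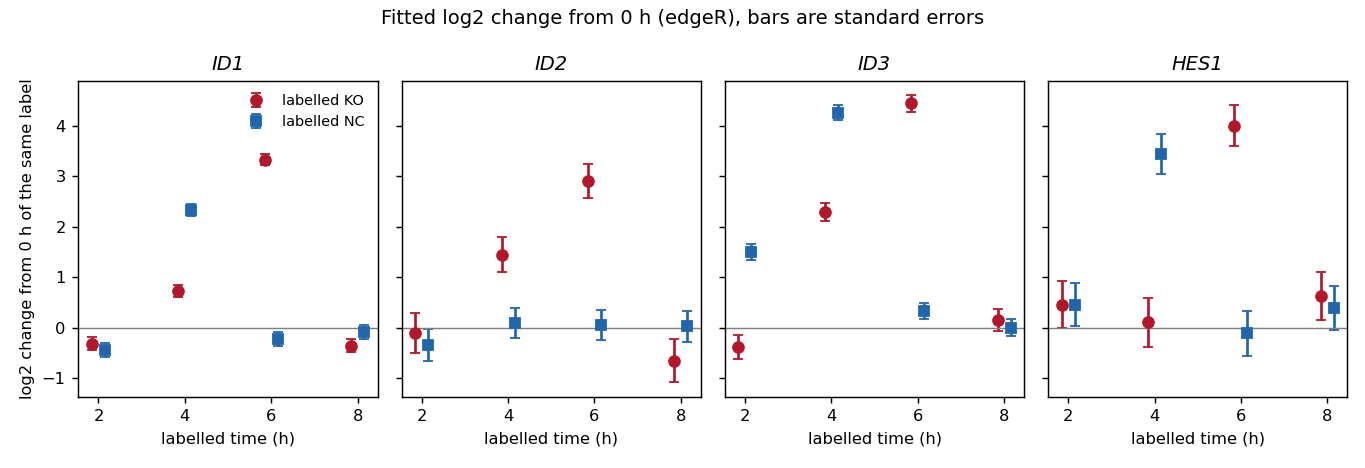
Fitted log2 change from 0 h of the same label at each later labelled time, in the fit over all 20 libraries; bars are SE. ID1, ID3 and HES1 rise at NC 4 h and KO 6 h, and ID2 rises at KO 6 h. Smaller rises are those of ID1, ID2 and ID3 at KO 4 h and of ID3 at NC 2 h. The 8 h values lie within 0.65 of 0.

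HES1 at KO 0 h was uneven: 10 counts (0.4769 CPM) in replicate 1 and 44 counts (2.362 CPM) in replicate 2. Without replicate 2, HES1 passed at KO 2 h (log2 1.99), KO 4 h (1.63) and KO 8 h (2.16) as well. Whether HES1 passed at these 3 times therefore turned on 1 library.

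The deposited molecule signal of this set, which in each library is a straight line of log2 RPKM and whose basis the sources used here do not give, moves the median of all genes by -0.55 (log2) in KO 6 h and 0.32 in NC 4 h, each against 0 h of the same label. On it the rises in KO 6 h were 3.20 for ID1, 2.76 for ID2, 4.43 for ID3 and 4.39 for HES1, all called with limma. In NC 4 h they were 2.86 for ID1, 4.90 for ID3 and 4.04 for HES1, all called, and 0.45 for ID2, which was not. At KO 2 h the median of all genes was -0.72, and ID1 (-1.09) and ID3 (-1.13) fell. At NC 6 h it was -0.48, and ID1 (-0.71) fell. At KO 8 h the median of all genes was -1.77, and ID1 (-2.24), ID2 (-2.55) and ID3 (-1.54) fell while HES1 (-0.60) did not pass. At NC 8 h the median of all genes was -1.17; ID1 (-1.21), ID2 (-1.07) and ID3 (-1.14) fell and HES1 (-0.62) did not pass. At KO 8 h, ID1 and ID2 thus lay below the median of all genes, and ID3 and HES1 above it. The ID2 value there rested on 25 and 7 counts. At NC 8 h the 3 ID genes lay near the median and HES1 above it. Differences from the median were not tested.

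**Figure D5:**
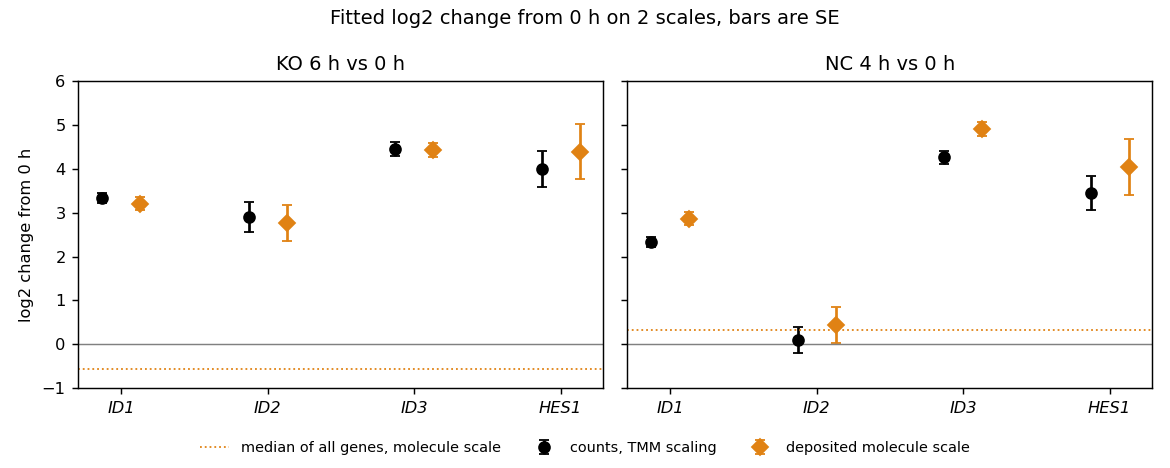
Log2 change from 0 h in the libraries labelled KO 6 h (left) and NC 4 h (right), from counts with TMM scaling (circles) and on the deposited molecule scale (diamonds); bars are SE and the dotted line is the median of all genes on the molecule scale. The rises of ID1, ID3 and HES1 are above 2 on both scales, and ID2 in NC 4 h lies below 1 on both.

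Straight-line slopes over labelled time, the form in which a lifetime would be read, passed for none of the 4 genes and for 0 of 17715 genes (edgeR; 635 genes in KO and 403 in NC had an unadjusted p under 0.05). The KO slopes were positive, 0.36 log2 per hour for ID1, 0.27 for ID2, 0.54 for ID3 and 0.44 for HES1, with unadjusted p of 0.0482 to 0.049 and an adjusted p of 1 each. Without the labelled time 8 h, the KO slopes of all 4 passed, at 0.58 for ID1, 0.54 for ID2, 0.82 for ID3 and 0.69 for HES1, with 2267 positive and 507 negative slopes called over all genes. The NC slopes lay between -0.09 and 0.02 log2 per hour. The slope difference passed for 0 genes, with 529 at an unadjusted p under 0.05. DESeq2 called 5 genes with a positive and 5 with a negative KO slope, 0 and 2 NC slopes, and 3 positive and 3 negative differences. No half-life was derived.

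The change over labelled time differed between the KO and NC labels for all 4 genes, where 55.3% of all genes passed this F test. At 2 h the KO change was lower than the NC change for ID3 alone, by a log2 of -1.88 (30.3% of genes passed, 15% higher and 15.3% lower). At 6 h, the KO change exceeded the NC change by a log2 of 3.55 for ID1, 2.85 for ID2, 4.12 for ID3 and 4.11 for HES1 (3.34 without KO 0 h replicate 1 and 5.64 without KO 0 h replicate 2; 32.1% of genes passed, 11.7% higher and 20.4% lower). At 4 h, it was lower by a log2 of -1.61 for ID1, -1.98 for ID3 and -3.34 for HES1, and higher by 1.35 for ID2 (27.1% passed, 10.7% higher and 16.3% lower). The ID2 value at 4 h had an adjusted p of 0.025, and was lost under ribosomal protein scaling, on the molecule scale and without any 1 of 6 of the 8 libraries it rests on. The HES1 value at 4 h was -1.81 (adjusted p = 0.0892) without KO 0 h replicate 2. At 8 h none passed with edgeR (6.6% of genes did, 2.87% higher and 3.74% lower), with unadjusted p of 0.149 to 0.712. On the molecule scale the ID1 difference passed as lower at 8 h (-1.03, limma adjusted p = 0.00127, median of all genes -0.63). It also did so at 2 h (-0.78, limma adjusted p = 0.00507, median of all genes -0.84). Without the 4 libraries labelled KO 6 h and NC 4 h, an alternative chosen after seeing the data, 1 of the 4 genes, ID3, still passed the F test between labels; ID1 (adjusted p = 0.24), ID2 (0.364) and HES1 (1) did not. Within NC labels, ID3 alone then changed over time, and within KO labels HES1 no longer did (adjusted p = 0.796).

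Between the labels at 0 h, the members did not move together. ID1 was higher in KO 0 h, with 23.94 and 27.11 CPM, against 8.246 and 12.43 CPM in NC 0 h (log2 1.31, SE 0.13, edgeR adjusted p = 4.23e-12). ID2 was lower in KO 0 h, with 1.335 and 1.288 CPM, against 3.899 and 4.645 CPM in NC 0 h (log2 -1.70, SE 0.35, edgeR adjusted p = 4e-05). Its KO 0 h values rested on 28 and 24 counts. ID3 was lower too, with 2.671 and 3.114 CPM in KO 0 h, against 5.512 and 6.897 CPM in NC 0 h (log2 -1.10, SE 0.19, edgeR adjusted p = 3.5e-06). None of these 3 pairs of libraries overlapped, as was so for 82% of all genes. HES1 overlapped and did not pass (log2 -0.39, SE 0.48, edgeR adjusted p = 0.493), but without KO 0 h replicate 2 it passed as lower in KO (log2 -1.91, adjusted p = 0.00415). Of the 4, 3 passed in a comparison in which 67.1% of all genes did (35.5% higher and 31.6% lower). ID3 had the opposite sign in the steady state, where it was higher in KO; on the molecule scale, whose median over all genes was 0.90 here, its 0 h difference was -0.35 and did not pass (adjusted p = 0.0569).

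At the other labelled times ID1 was higher in KO at 2 h (log2 1.43), 6 h (4.86) and 8 h (1.03) and slightly lower at 4 h (-0.30, edgeR adjusted p = 0.00909), the time of the high NC libraries. The 4 h value for ID1 was lost under ribosomal protein scaling, with no filter on low counts, on the molecule scale, with DESeq2, and without KO 4 h replicate 2 (log2 -0.21) or NC 4 h replicate 1 (-0.25). ID3 was lower in KO at 2 h (-2.98), 4 h (-3.08) and 8 h (-0.95) and higher at 6 h (3.01). ID2 was lower in KO at 2 h (-1.46) and 8 h (-2.37), higher at 6 h (1.15), and did not pass at 4 h (-0.35). HES1 was lower at 4 h (-3.72), higher at 6 h (3.73), and did not pass at 2 h (-0.39) or 8 h (-0.14). Of all genes, 69% passed at 2 h (33.8% higher and 35.3% lower), 70.2% at 4 h (31.9% higher and 38.3% lower), 72.3% at 6 h (37.4% higher and 34.9% lower) and 66.3% at 8 h (34.9% higher and 31.4% lower).

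Per length, ID1 had the highest mean of the 5 at 0 h under both labels, at 9.34 ± 0.866 RPKM in KO 0 h and 3.74 ± 1.06 RPKM in NC 0 h (SD, n = 2 each), with ID3 next at 1.36 ± 0.154 RPKM in KO 0 h and 2.89 ± 0.450 RPKM in NC 0 h. In NC 0 h the libraries of the 2 genes overlapped, at 2.989 and 4.493 RPKM for ID1 and 2.57 and 3.206 RPKM for ID3. ID3 was above ID1 in the NC 2 h, NC 4 h and NC 6 h libraries. In KO 6 h, ID1 averaged 107 ± 0.140 RPKM and ID3 33.6 ± 0.606 RPKM; in NC 4 h, ID1 averaged 19.9 ± 1.08 RPKM and ID3 58.7 ± 6.20 RPKM. HES1 averaged 7.17 ± 0.0116 RPKM in KO 6 h and 5.87 ± 0.247 RPKM in NC 4 h, and ID2 averaged 3.87 ± 0.108 RPKM in KO 6 h and 1.65 ± 0.00334 RPKM in NC 4 h.

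Ordered by group mean, ID1 ran KO 6 h, NC 4 h, KO 4 h, KO 0 h, KO 2 h, KO 8 h, then the other NC labels, of which NC 0 h and NC 8 h, and NC 6 h and NC 2 h, overlapped. ID3 ran NC 4 h, KO 6 h, NC 2 h, KO 4 h, NC 6 h, NC 0 h, NC 8 h, KO 8 h, KO 0 h and KO 2 h, and only NC 0 h and NC 8 h overlapped among neighbours. HES1 ran KO 6 h, NC 4 h and NC 2 h, with means of 22.19, 19.76 and 2.499 CPM, and from NC 8 h down all neighbours overlapped. For ID2, KO 6 h stood alone at the top with 9.87 CPM and the 6 groups from NC 4 h to NC 2 h overlapped in turn.

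The genes whose pattern was most like that of each member, by Pearson's r of log2(CPM + 1) over the 10 group means after removal of each label's mean, were NFKBIA (r = 0.99), CLK1 (0.98) and DDIT4 (0.98) for ID1, and FAM53B (0.99), MEF2A (0.97) and LRFN1 (0.97) for ID2. For ID3 they were URGCP (0.999), BRPF1 (0.998) and ZNF687 (0.997), and for HES1 PPP1R10 (0.99), ZNF217 (0.98) and IER2 (0.98). These were the top 3 of about 9738 genes with at least 10 CPM, and the 10 points share libraries and depth. For ID1, ID3 and HES1 the KO 6 h and NC 4 h points carry most of the variation. For ID2 the KO 6 h point alone does. On the molecule scale several lost their place: ZNF687 was at place 220, LRFN1 at 182, MEF2A at 150, and DDIT4 and URGCP at 15, while the other 7 were within the first 12. Among the members, r was 0.93 for ID1 and ID3, 0.94 for ID1 and HES1, 0.90 for ID3 and HES1, and 0.82, 0.72 and 0.65 for ID2 with ID1, ID3 and HES1.

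Among the listed partners at 0 h, TCF3 was slightly lower in KO (log2 -0.24, edgeR adjusted p = 0.000419) but higher under ribosomal protein scaling (0.21) and on the molecule scale (0.65). TCF4 was lower, at 0.573 ± 0.41 CPM in KO 0 h and 8.48 ± 1.4 CPM in NC 0 h (SD, n = 2 each; log2 -3.91, edgeR adjusted p = 3.32e-09), and TCF12 did not pass (-0.11). Of the 9 HES, HEY and BHLHE genes tested, 6 were higher in KO 0 h and 2 lower, where 67.1% of all genes passed (35.5% higher). Their median was 1.10, also with HEYL at its bound, against 0.06 over all genes. HES2 (2.18), HES4 (1.10), HES6 (1.57), BHLHE40 (0.63) and BHLHE41 (2.29) were higher, HEY1 (-2.60) and HEY2 (-1.93) lower (HEY2 lost its call under ribosomal protein scaling and on the molecule scale), and HES7 (0.17) did not pass. HEYL had 1.03 ± 0.16 CPM in KO 0 h and 0 counts in both NC 0 h libraries, at least 7.80-fold higher against 3 counts per library. BHLHE40, picked after its values were seen, was also high in the high libraries, at 131 ± 0.044 CPM in KO 6 h, against 11.9 ± 1.1 CPM in KO 0 h (log2 3.46), and 71.1 ± 2.9 CPM in NC 4 h, against 7.62 ± 0.82 CPM in NC 0 h (log2 3.22). Of the 9 genes, 5 were higher and 0 lower in KO 6 h (all genes 19.7% and 28%). In NC 4 h 5 were higher and 1, HES4 (-0.71), lower (all genes 27.1% and 24.4%). HES6 (-0.18 and -0.45) passed in neither. On the molecule scale the KO 6 h count became 2 higher.

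Of 36 BMP genes tested at 0 h, 15 were higher and 8 lower in KO, and of 36 Notch genes 20 were higher and 9 lower. These counts are to be read against 67.1% of all genes passing (35.5% higher and 31.6% lower). The median log2 was 0.51 for BMP and 0.29 for Notch genes, against 0.06 over all genes. Under the molecule scale, whose median over all genes was 0.90, the Notch counts became 29 and 2. Among called genes of at least 5 CPM on average, the largest falls of BMP genes were in the secreted inhibitors FSTL1 (log2 -5.74, SE 0.09) and FST (-4.71, SE 0.17) and in the ligand BMP2 (-4.36, SE 0.57). The largest rises within that limit were in GDF15 (3.84, SE 0.12), the type I receptor ACVR1 (2.14, SE 0.12) and the co-receptor RGMB (2.01, SE 0.18). For Notch, within the same limit, the largest falls were in the receptor NOTCH3 (-5.91, SE 0.09), NUMBL (-1.51, SE 0.15) and the receptor NOTCH1 (-0.90, SE 0.10, and -0.15 with no call on the molecule scale). The largest rises there were in the ligands JAG1 (4.88, SE 0.10) and DLL3 (4.13, SE 0.13) and in LFNG, a Fringe glycosyltransferase (1.87, SE 0.25). The presence of CDKN2A in the NC-labelled libraries only moves with all of these differences, and the genotype and the cells of origin cannot be told apart here.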

How the data were processed

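The steady-state tables the authors deposited hold expected counts, with TPM and FPKM, per the file headers. Those of the actinomycin D set, as deposited, hold read counts, RPM, RPKM and a log2 molecule signal. STAR, RSEM, Bowtie2, deepTools and hg19 are named in the submitters' processing notes; the sources used here give no roles, annotation or strand setting. Per the labels' protocols, total RNA came from TRIzol extraction and a Hieff mRNA kit was used for RNA-seq. The 5 crosslinking samples were not analysed here.

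Expected counts were rounded (10.2% were not whole), and 45 pseudoautosomal copies were added to their partners. Of 58037 steady-state identifiers 56948 had a symbol; of 43682 actinomycin D names 42335 were current and 408 were updated. Genes passing filterByExpr were tested with edgeR 4.0.16 (R 4.3.3; TMM, robust quasi-likelihood F test, Benjamini-Hochberg adjustment at 0.05), in 6 steady-state libraries, or with 1 mean per label and time in all 20 actinomycin D libraries. SE was taken as the absolute log2 change divided by the root of F. CPM values carry TMM scaling, except those of KHSRP and the marker lists, which use total counts. The molecule scale was fitted with limma 3.58.1, with trend, 0 counts being set to the value of 0.5 count. The fits were tested on simulated data with known changes, of which they recovered most but not all. In those data few genes changed, as many up as down, and every gene had the same dispersion. They therefore do not show how the fits or the scaling do where most genes differ. The alternatives were other scalings, no filter, DESeq2 1.42.0, length-adjusted offsets, fits on fewer libraries or times, each library left out, and a replicate block.

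Libraries of 1 group differed beyond sampling noise (chi-square per degree of freedom 3.81 to 42.8 in the steady state, 3.9 to 5.3 under actinomycin D), so each was kept as a replicate. Same-numbered libraries were not treated as pairs. Their deviations from group means correlated at -0.201 to 0.157 in the steady state and -0.0597 to 0.0716 under actinomycin D. Such values cannot show whether same-numbered libraries were handled together, and the labels do not say. The 5 members and the 13 lists of 108 genes were chosen with earlier results of these data known. The rule names all members, KHSRP, all E-protein and HES/HEY genes, the 3 largest rises and falls of at least 5 CPM in the BMP and Notch lists, and the 3 genes most like each member; CDKN2A, the markers, the TLE genes and BHLHE40 in the high libraries were named after their values were seen.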

Additional observations from a re-analysis of the deposited data

Results flagged for a closer look

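The change over labelled time differed between KO-labelled and NC-labelled libraries for each of the 4 members tested, by the F test of the difference over 4 labelled times (edgeR quasi-likelihood, adjusted over all genes). The adjusted p was 1.03e-25 for ID1, 5.76e-08 for ID2, 5.22e-26 for ID3 and 2.23e-10 for HES1. The same test passed for 55.3% of all genes. KO libraries were high at 6 h and NC libraries at 4 h. Without these 4 libraries, an alternative chosen after seeing the data, ID3 still passed and ID1, ID2 and HES1 did not.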

How the results depend on the processing

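In the steady state, all-gene calls were 4198 higher and 4528 lower in KO; scaling to ribosomal protein genes gave 2568 higher. At 0 h the 6287 higher and 5600 lower became 10140 and 2314 on the molecule scale, and 3520 lower under ribosomal protein scaling. On the molecule scale several values changed sign, of which 3 passed the test after turning: ID3 at KO 8 h (-1.54), ID2 at NC 8 h (-1.07) and the ID1 difference of change at 2 h (-0.78). That scale called 9 positive and 8605 negative KO slopes and 13 positive and 7515 negative NC slopes, against 0 from counts with edgeR. Without the labelled time 8 h, 2267 positive and 507 negative KO slopes were called, with 4 members among them; without 4 h, 1 positive KO slope and 1 positive slope difference. DESeq2 called 5 and 5 KO slopes, 2 negative NC slopes and 3 and 3 differences. Leaving out single libraries gave 0 to 1 calls for KO slopes in either direction and for positive differences, and 0 to 2 for positive NC slopes and negative differences. Without the libraries labelled KO 6 h and NC 4 h, an alternative chosen after seeing the data, 5813 genes and 1 member passed the test between labels (9790 and 4 with them), and 1 member passed within NC (3 with them). The log2 ratio of ID1 to ID3 in KO 6 h was 1.67 in RPKM and 2.03 in RPM, and that of ID3 to ID1 in NC 4 h 1.56 and 1.19, since RPM ignores length. HES1 between labels at 0 h ran from -1.91 to 0.38 as single libraries were left out.

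With replicate number as a block, although the labels do not say that the numbers pair the samples, steady-state calls were 4048 higher and 4658 lower, 0 h calls 6250 and 5577, and no member's call changed. Depth limits ID4 everywhere, and HES1 outside the high libraries of the actinomycin D set. It limits ID2 in the steady state and in the KO-labelled actinomycin D libraries outside KO 6 h (7 to 91 counts). The cause of the other shifts was not tested.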
